A study of Mus musculus with 4 samples.

Results

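The genes described here encode the machinery of autophagy and the receptors that bring cargo to it. They were all rows of the deposited expression table whose symbol is Atg followed by a digit (19 rows), or one of 26 named autophagy genes, of which 25 had a row; Map1lc3a was not analysed here. This gave 44 of the 28141 gene symbols in the table, and all 44 passed the filter on low values. The study sequenced polyadenylated RNA of leukaemia cells taken from the bone marrow of C57BL/6 mice, in a series on leukaemia stem cells and chronic myeloid leukaemia. It compared 2 libraries from wild-type cells (WT) with 2 libraries from Ybx1 conditional knockout cells (cKO). Ybx1 encodes an RNA- and DNA-binding protein of the Y-box family. The oncogene that drives the leukaemia, the Cre line, the age of the mice and the number of animals behind each library are not stated in the labels. What the p-values measure is thus the scatter among these 4 libraries, and it may be technical only.

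Autophagy encloses part of the cytoplasm in a double membrane, the autophagosome, which fuses with a lysosome so that its content is broken down. A kinase complex around ULK starts the process, a lipid kinase complex marks the membrane with phosphatidylinositol 3-phosphate (PI3P), and carriers and channels feed lipid to the growing sheet. Small ubiquitin-like proteins of the LC3 and GABARAP group are then fixed to the membrane, where cargo receptors bind them. In blood formation, autophagy is known for clearing mitochondria from stem cells and red cell precursors.

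Values are levels on a log2 scale, made by multiplying the deposited scores by 0.693. That factor was inferred from the noise between replicates, and if the scores were plain log2 each log2 change below would be 1.44 times as large with the same p-value. A change is the cKO mean minus the WT mean, and a gene is said to have risen or fallen at a limma adjusted p under 0.05, taken over all 15527 genes tested. The table held no counts, so depth is unknown. Ybx1 itself was lower in both cKO libraries (8.19 and 8.13) than in both WT libraries (9.31 and 9.41), a fall that passed the test (limma adjusted p = 1.1e-11).

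Most autophagy genes were higher in cKO. Of the 44, 28 rose, 3 fell and 13 did not pass, where 19.5% of all genes tested rose and 17.8% fell. The shares were 63.6% and 6.82% for the autophagy genes. Their median log2 change was 0.33, against 0.00 over all genes tested. Of the called genes 1, Map1lc3b, changed by 2-fold or more, and 9 of the 28 rises reached 0.5 on the log2 scale. These counts rest on the scale: they were 0 and 10 after quantile normalization, 2 and 14 with library medians set equal, and 5 and 20 with the scores read as plain log2. Both cKO libraries stood above both WT libraries for 29 of the 44 genes and below them for 7; over all genes tested these shares were 32.7% and 32.4%. The largest rises were those of Map1lc3b, Wdr45 and Wipi1, and the 3 falls were those of Pik3r4, Atg5 and Tax1bp1. When the prior variance of the test was not allowed to follow the expression level, 12 of the 44 rose and 0 fell, where 7.58% and 7.02% of all genes did; at an unadjusted p under 0.05 that limma fit gave 25 higher and 3 lower, where 19.3% and 18.4% of all genes were. The 12 that rose in that fit were Map1lc3b, Gabarapl1, Wipi1, Wdr45, Atg2a, Atg9a, Vmp1, Rb1cc1, Atg14, Atg7, Calcoco1 and Tecpr1, and the other 19 calls were lost, those of all 3 ATG4 genes among them.

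**Figure D1:**
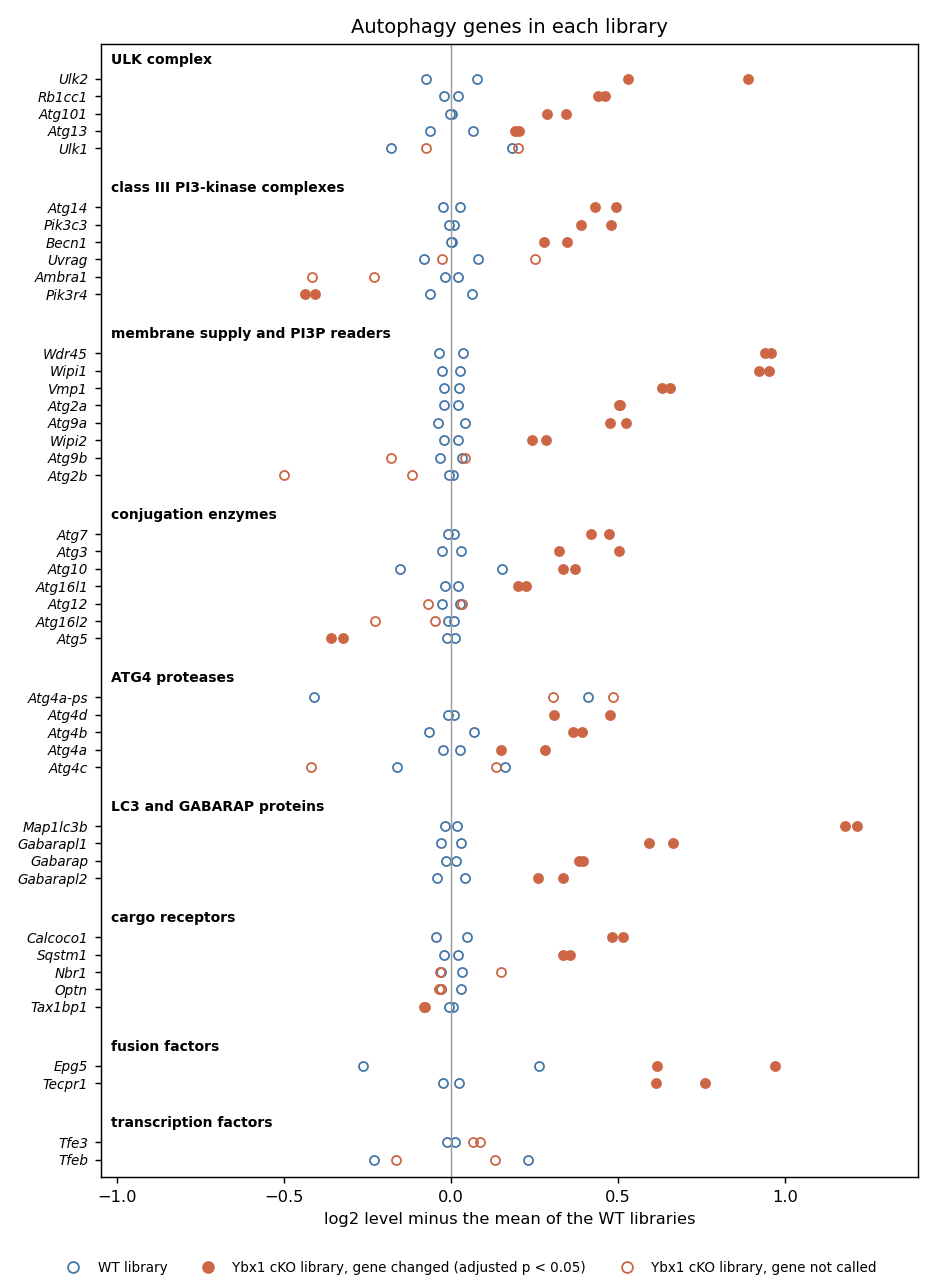
Each row is 1 gene and each point 1 library, placed at its log2 level minus the mean of the WT libraries, with genes grouped by role. The cKO points of Map1lc3b lie farthest to the right, and those of Pik3r4, Atg5 and Tax1bp1 are the filled points to the left of 0.

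**Figure D2:**
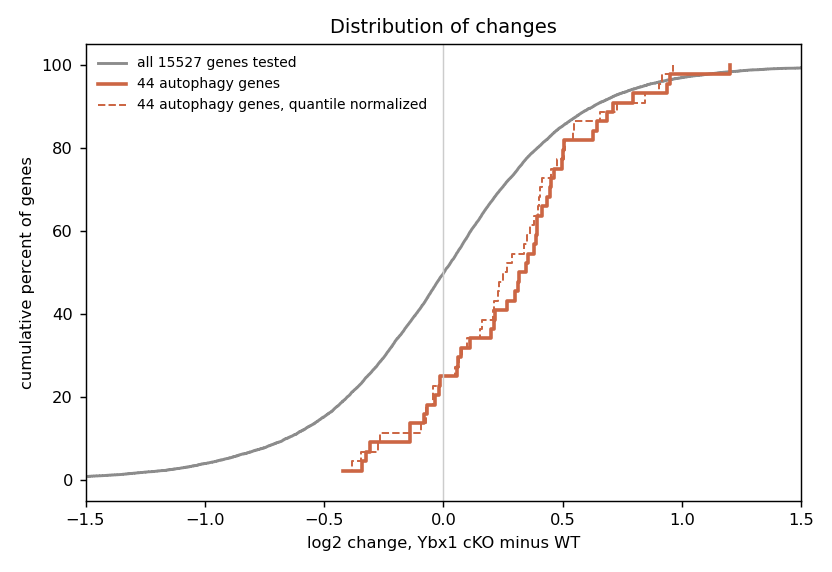
The curves give the cumulative percent of genes (vertical axis) at or below each log2 change (horizontal axis), for all 15527 genes tested and for the 44 autophagy genes as deposited and after quantile normalization. The curve of the autophagy genes has its median at 0.33, or at 0.26 after quantile normalization, and the curve of all genes at 0.00.

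Marker genes of several blood cell types moved in the same comparison, in which 19.5% of all genes tested rose and 17.8% fell. The 5 mature neutrophil markers with a row summed to 441 and 477 per 1000000 of the library sum in WT. In cKO they summed to 1225 and 1236, with 4 risen and Padi4 fallen. Most of that gain lay in Mmp8 (mean 58.9 to 362 per 1000000) and Mmp9 (234 to 683). Ceacam1 went from 45.7 to 80.2, Cxcr2 from 19.9 to 23.0 and Padi4 from 101 to 82.0. The other 7 of the 12 listed, S100a8 and Camp among them, were not analysed here. The 9 of 11 monocyte and macrophage markers with a row summed to 6655 and 6765 in WT and 10585 and 10620 in cKO, and 5 of the 8 tested rose. Of these, the lysozyme gene Lyz2 went from 1128 to 4910 per 1000000. The library sums, taken off the log scale, were 11157952 and 11074317 in WT and 12104617 and 12134026 in cKO. The log2 changes were not divided by these sums, so values per 1000000 give smaller rises. Adgre1, called higher at a log2 change of 0.09, went from 5215 to 5094 per 1000000. Of 8 stem and progenitor markers 3 had a row (Ly6a, Gata2 and Mecom), and all 3 fell. All 3 of 6 T and NK cell markers with a row fell, with summed levels of 155 and 157 per 1000000 in WT and 61.1 and 66.3 in cKO, and so did all 3 of 8 erythroid markers with a row, from 181 and 173 to 127 and 117. Of 5 megakaryocyte and platelet markers 2 rose, among them Ppbp by 4.29-fold, and 2 fell, among them Itgb3 by 3.72-fold; their sums were 480 and 499 in WT and 673 and 691 in cKO. Of 5 B cell markers 1 had a row, Cd79b, which rose by 0.26 on the log2 scale (limma adjusted p = 0.043). Among 6 endothelial and stromal markers 4 were tested, of which Pecam1 fell (log2 change -0.85) and 3 did not pass. Those with a row summed to 449 and 470 per 1000000 in WT and 231 and 239 in cKO. Of the defining stem cell markers, Kit and Cd34 were not analysed here, so the name leukaemia stem cells could not be checked with them. Among 5 markers of leukocytes in general 3 rose (Spi1, Laptm5 and Runx1), where 19.5% of all genes tested rose, and 2 did not pass. The 5 summed to 1391 and 1463 per 1000000 in WT and 1564 and 1569 in cKO. Ptprc, which did not pass, stood at a log2 level of 12.07 and 12.11 in WT and 12.13 and 12.11 in cKO. In bulk RNA, a changed share of cells of a type and changed RNA per cell cannot be told apart. The part of the cell type markers in the changes of the autophagy genes was not tested.

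The LC3 and GABARAP proteins are the tags that are coupled to lipid on the autophagosome and that cargo receptors hold. All 4 genes with a row rose, though with the prior variance not following the level Gabarap (limma adjusted p = 0.050) and Gabarapl2 (limma adjusted p = 0.093) did not pass. Map1lc3b, which encodes LC3B, the usual marker of autophagosomes, had log2 levels of 13.27 and 13.23 in WT against 14.43 and 14.47 in cKO. Both cKO libraries were higher by far more than the replicates differed, a 2.30-fold rise (log2 change 1.20, SE 0.02, limma adjusted p = 2.7e-22). This was the 266th largest rise of all 15527 genes tested. Gabarapl1 stood at 10.69 and 10.75 in WT and 11.38 and 11.31 in cKO (log2 change 0.63, SE 0.04, limma adjusted p = 1.6e-11). Gabarap stood at 11.58 and 11.55 in WT and 11.95 and 11.96 in cKO (log2 change 0.39, SE 0.03, limma adjusted p = 1.7e-09). Gabarapl2 had the smallest rise of the 4, from 9.89 and 9.98 in WT to 10.19 and 10.27 in cKO (log2 change 0.30, SE 0.06, limma adjusted p = 1.2e-04). In all 4 genes both cKO libraries stood above both WT libraries, which was also so for 32.7% of all genes tested.

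Because these 4 genes rose by different amounts, their proportions differed between the groups. Levels were divided by exon length to compare genes, and each gene's share of the 4 was taken in each library. Map1lc3b made up 31.3% and 30.6% of the summed level per exon kb in WT and 42.6% and 43.3% in cKO. Gabarap made up 39.5% and 38.7% in WT and 31.0% in each cKO library. The order of the 2 therefore differed, with Gabarap first in both WT libraries and Map1lc3b first in both cKO libraries. That reversal depends on the length used: with the longest single transcript in place of all merged exons, Map1lc3b was first in all 4 libraries, at 39.0% and 38.2% in WT and 51.3% and 51.9% in cKO. Gabarapl1 took 19.5% and 20.4% per exon kb in WT and 19.2% and 18.1% in cKO, and Gabarapl2 was last in all 4 libraries, at 7.29% to 10.3%.

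**Figure D3:**
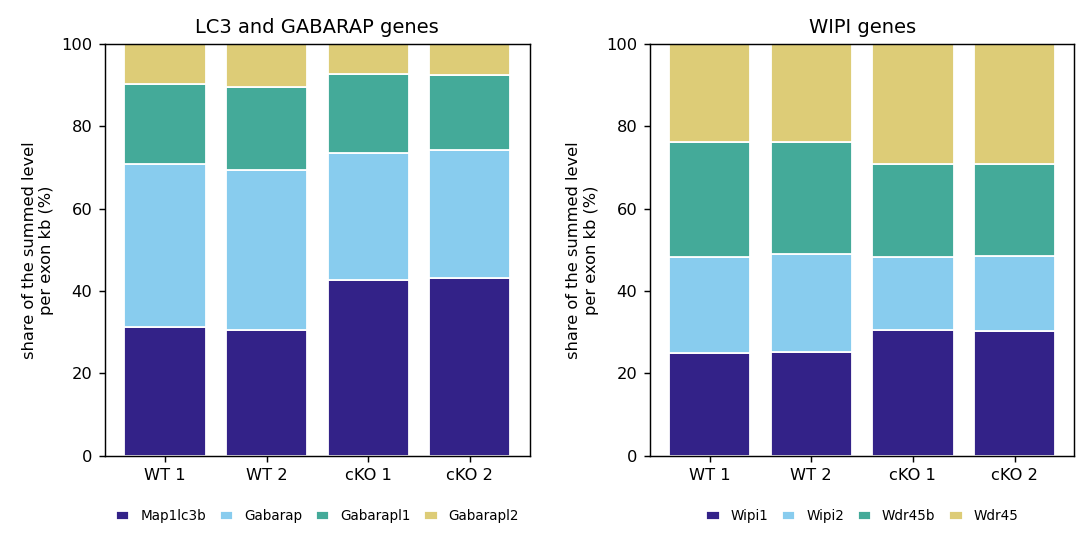
Stacked bars give each gene's share, in percent, of the summed level per exon kb within the LC3 and GABARAP genes (left) and the 4 WIPI genes (right), 1 bar per library. The Map1lc3b block grows from 31.3% and 30.6% in WT to 42.6% and 43.3% in cKO, and the Wipi2 and Wdr45b blocks shrink.

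Map1lc3b lies on the plus strand of chromosome 8 from 121590361 to 121598760 (GRCm38, GENCODE M21). Its exons share 58 bases with Zcchc14 on the opposite strand, a gene whose own log2 level was 1.87 in WT and 0.89 in cKO. Gabarapl1 (chromosome 6, 129533160 to 129542346) shares 570 exon bases with 1700101I11Rik on the opposite strand, which stood at 1.93 and 1.32. Both neighbours were many times lower than the autophagy gene beside them and neither rose.

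Of the ULK complex, which receives the signal to start, 4 of 5 genes rose. Rb1cc1 encodes FIP200, the scaffold of the complex, and stood at 7.54 and 7.58 in WT and 7.999 and 8.022 in cKO (log2 change 0.45, SE 0.11, limma adjusted p = 1.8e-03). Atg101, which pairs with ATG13, stood at 10.34 in each WT library and at 10.68 and 10.63 in cKO (log2 change 0.32, SE 0.05, limma adjusted p = 8.3e-06). The 2 kinase genes gave different values. Ulk1 stood at 5.60 and 5.96 in WT and 5.71 and 5.98 in cKO, with overlapping groups (log2 change 0.06, limma adjusted p = 0.87). Ulk2 stood at 4.86 and 4.71 in WT and 5.32 and 5.68 in cKO (log2 change 0.71, SE 0.27, limma adjusted p = 0.040), but it no longer passed when WT replicate 1 (adjusted p = 0.083), WT replicate 2 (adjusted p = 0.18) or cKO replicate 2 (adjusted p = 0.20) was left out. Whether the changes of Ulk1 and Ulk2 differ was not tested. Atg13, the regulatory subunit, rose by 0.20 on the log2 scale, a call lost without WT replicate 1 (log2 change 0.13, adjusted p = 0.15).

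The class III PI3-kinase complexes make PI3P, and their genes moved both ways. Of 6 genes 3 rose, 1 fell and 2 did not pass. Becn1, the Beclin 1 scaffold, stood at 11.29 and 11.28 in WT and 11.63 and 11.57 in cKO (log2 change 0.31, SE 0.04, limma adjusted p = 3.3e-07). Pik3c3, the catalytic subunit VPS34, stood at 9.62 and 9.61 in WT and 10.00 and 10.09 in cKO (log2 change 0.43, SE 0.06, limma adjusted p = 1.5e-06). Atg14, which directs the kinase to autophagy, stood at 8.19 and 8.14 in WT and 8.66 and 8.59 in cKO (log2 change 0.46, SE 0.09, limma adjusted p = 1.8e-04). Pik3r4, the regulatory subunit VPS15 that binds VPS34 in both complexes, went the other way. It stood at 8.44 and 8.57 in WT and 8.10 and 8.07 in cKO, a 1.34-fold fall (log2 change -0.42, SE 0.09, limma adjusted p = 7.7e-04). Uvrag, the subunit of the endosomal complex, overlapped between groups (log2 change 0.11, limma adjusted p = 0.58). Ambra1, a regulator of Beclin 1, had a log2 change of -0.33 (limma adjusted p = 0.082), and passed when cKO replicate 1 was left out (log2 change -0.42, adjusted p = 0.034). Under quantile normalization the change of Becn1 was 0.21. Becn1 shares 3104 exon bases with Cntd1 on the opposite strand, which stood at 3.10 in WT and 2.47 in cKO.

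Genes for membrane supply and for reading PI3P held 2 of the 3 largest rises, and of 8 genes 6 rose and 2 did not pass. Wipi1, whose protein binds PI3P on the forming membrane, stood at 9.27 and 9.22 in WT and 10.20 and 10.17 in cKO, a 1.91-fold rise (log2 change 0.94, SE 0.06, limma adjusted p = 4.1e-12). Wdr45, the X-linked relative WIPI4 that works with the lipid carrier ATG2, stood at 8.79 and 8.72 in WT and 9.71 and 9.70 in cKO, a 1.93-fold rise (log2 change 0.95, SE 0.07, limma adjusted p = 4.4e-11). Wipi2, which recruits ATG16L1, rose by 0.26 (SE 0.05, limma adjusted p = 7.2e-05). The family's remaining gene, Wdr45b (WIPI3), belongs to a further list and not to the 44, and is named after its values were seen; it stood at 9.48 and 9.38 in WT and 9.80 and 9.77 in cKO and rose by 0.36 (SE 0.06, limma adjusted p = 5.9e-05). Per exon kb the 4 WIPI genes each held 23.3% to 27.9% of their summed level in WT. In cKO Wipi2 held 17.6% and 18.3% and Wdr45b 22.6% and 22.3%, while Wipi1 held 30.6% and 30.3%. With the longest single transcript as the length, the WT shares were less alike, from 18.2% to 28.6%, and Wipi2 went from 26.2% and 26.7% in WT to 20.1% and 20.9% in cKO. Wipi1 lies on the minus strand of chromosome 11 from 109573331 to 109611967. Wdr45 (chromosome X, 7714333 to 7728206, plus strand) shares 818 exon bases on its own strand with the gene model Gm45208, so reads could be split between them.

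Vmp1, a lipid scramblase of the endoplasmic reticulum, stood at 13.06 and 13.01 in WT and 13.66 and 13.69 in cKO (log2 change 0.64, SE 0.02, limma adjusted p = 3.3e-16). Under quantile normalization its change was 0.41, still called. Vmp1 (chromosome 11, 86583865 to 86683836, minus strand) shares 92 exon bases with the microRNA gene Mir21a. Atg9a, the membrane protein of the seed vesicles, stood at 9.62 and 9.54 in WT and 10.06 and 10.11 in cKO (log2 change 0.50, SE 0.06, limma adjusted p = 1.8e-07), while Atg9b did not pass (log2 change -0.07, limma adjusted p = 0.58). Atg9a shares 1832 exon bases on its own strand with the gene model Gm29253, so its reads could be affected. The mean log2 level of Gm29253 was -1.08 in WT and -0.83 in cKO. The lipid carrier gene Atg2a stood at 8.29 and 8.25 in WT and 8.77 in each cKO library (log2 change 0.51, SE 0.09, limma adjusted p = 3.4e-05). Its paralog Atg2b, which is lower per exon kb, did not pass (log2 change -0.31, SE 0.22, limma adjusted p = 0.31). In both of these paralog pairs the gene that rose was the one at the higher level per exon kb in WT. The ULK kinase pair went the other way: Ulk2, the called gene, had a log2 level per exon kb of 2.21 in WT, against 3.09 for Ulk1. Whether the 2 genes of a pair changed differently was not tested.

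The conjugation enzymes, grouped here with their partner proteins, act like a ubiquitin cascade that couples LC3 to lipid. Of 7 genes 4 rose, 1 fell and 2 did not pass. Atg7, the activating enzyme, stood at 10.90 and 10.89 in WT and 11.32 and 11.37 in cKO (log2 change 0.45, SE 0.04, limma adjusted p = 2.8e-09). Atg3, which hands LC3 to lipid, stood at 9.93 and 9.88 in WT and 10.41 and 10.23 in cKO (log2 change 0.41, SE 0.06, limma adjusted p = 3.8e-06). Atg10, which joins ATG12 to ATG5, stood at 8.06 and 7.76 in WT and 8.28 and 8.24 in cKO (log2 change 0.35, SE 0.11, limma adjusted p = 0.012), a call lost without WT replicate 2 (log2 change 0.20, adjusted p = 0.29). Atg16l1, which places the complex on the membrane, rose by 0.21 (limma adjusted p = 0.023), but did not pass when WT replicate 1 (adjusted p = 0.067), WT replicate 2 (adjusted p = 0.15) or cKO replicate 2 (adjusted p = 0.061) was left out. Atg5, the partner of both ATG12 and ATG16L1, fell. It stood at 9.74 and 9.72 in WT and 9.37 and 9.41 in cKO, with no overlap (log2 change -0.34, SE 0.06, limma adjusted p = 8.3e-05). Its partner gene Atg12 overlapped between groups (log2 change -0.02, limma adjusted p = 0.82), and Atg16l2 did not pass (log2 change -0.14, limma adjusted p = 0.38).

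The ATG4 proteases trim LC3 and GABARAP before coupling and release them afterwards. Atg4b, the main protease for LC3, stood at 9.88 and 10.01 in WT and 10.33 and 10.31 in cKO (log2 change 0.38, SE 0.06, limma adjusted p = 5.6e-06). Atg4d stood at 9.48 and 9.47 in WT and 9.95 and 9.78 in cKO (log2 change 0.39, SE 0.06, limma adjusted p = 2.5e-05). Atg4d shares 1405 exon bases with Kri1 on the opposite strand, and Kri1 had a log2 change of 0.06. Atg4a rose by 0.21, the third rise of the 5 ATG4 rows, but did not pass once WT replicate 1 (adjusted p = 0.054), WT replicate 2 (adjusted p = 0.15) or cKO replicate 1 (adjusted p = 0.19) was left out. Atg4c overlapped between groups (log2 change -0.14). So did Atg4a-ps, a copy of Atg4a with which reads could be shared, which had the lowest level of the 44 rows, at 2.27 in WT and 2.66 in cKO.

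Cargo receptors link ubiquitin or damaged organelles to LC3, and of these 5 genes 2 rose, 1 fell and 2 did not pass. Sqstm1, which encodes the receptor p62 and is itself degraded by autophagy, stood at 14.11 and 14.15 in WT and 14.47 and 14.49 in cKO, a 1.27-fold rise (log2 change 0.35, SE 0.02, limma adjusted p = 1.2e-12). The size of this rise rests on the scaling between libraries: under quantile normalization it was 0.07 (limma adjusted p = 0.010). Calcoco1, a receptor for parts of the endoplasmic reticulum and the Golgi, stood at 10.13 and 10.22 in WT and 10.66 and 10.69 in cKO (log2 change 0.50, SE 0.05, limma adjusted p = 1.5e-08). Tax1bp1 fell by 0.08 on the log2 scale (limma adjusted p = 1.7e-04), from 15.64 and 15.63 in WT to 15.55 in each cKO library. That call was lost when each library's median was set equal (log2 change -0.02, adjusted p = 0.42), while under quantile normalization the change was -0.41. Optn and Nbr1 did not pass, with log2 changes of -0.03 and 0.06 (limma adjusted p = 0.78 and 0.57). Per exon kb Sqstm1 (12.39) and Tax1bp1 (12.31) had the highest log2 levels of the 44 genes in WT, followed by Vmp1 (11.08), Gabarap (10.68) and Map1lc3b (10.34). This order rests on the length used. Merged exons of Tax1bp1 span 9991 bases, against 4249 in its longest single transcript, and those of Sqstm1 3356 against 2673. Sqstm1 (chromosome 11, 50199366 to 50210827, minus strand) shares 580 exon bases with Mrnip on the opposite strand, which had a log2 change of -0.02.

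Both fusion factors rose. Tecpr1, which helps the autophagosome meet the lysosome, stood at 9.78 and 9.73 in WT and 10.51 and 10.37 in cKO (log2 change 0.69, SE 0.06, limma adjusted p = 5.9e-10). Epg5, a tether that gives fusion its specificity, stood at 6.09 and 5.56 in WT and 6.80 and 6.44 in cKO (log2 change 0.79, SE 0.21, limma adjusted p = 3.7e-03). The Epg5 call was lost without WT replicate 2 (log2 change 0.53, adjusted p = 0.090).

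TFEB and TFE3 are the transcription factors that switch on genes of autophagy and lysosomes when they enter the nucleus. The transcript of neither passed the test. Tfeb stood at 4.52 and 4.06 in WT and 4.13 and 4.43 in cKO, with overlapping groups (log2 change -0.02, SE 0.34, limma adjusted p = 0.98; the sign was positive when library medians were set equal, at 0.05). Tfe3 stood at 9.39 and 9.36 in WT and 9.44 and 9.46 in cKO (log2 change 0.07, SE 0.06, limma adjusted p = 0.41). Per exon kb Tfe3 was the higher of the pair in WT, at a log2 level of 6.16 against 1.79. RNA levels do not show where these proteins are in the cell.

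Since TFEB and TFE3 bind E-box letters, promoters were searched for CACGTG and for the longer TCACGTGA, and, because of the Y-box after which Ybx1 is named, for CCAAT, each on both strands. RefSeq promoter windows (GRCm38.p6, 250 bases before to 50 bases after each start) were found for 37 of the 44 genes. CACGTG was present for 4 of the 37 (10.8%), against 8.09% of all 27025 genes with a window; these were Atg3, Atg7 and Atg14, which rose, and Atg5, which fell. TCACGTGA, which contains CACGTG, was present for 1 of the 37 (2.70%), Atg3, against 1.12% of all. CCAAT was present for 12 of the 37 (32.4%), against 41.1% of all. To set the E-boxes of genes that rose and fell beside the largest rise, stretches of up to 100 bases before these starts, with no annotated exon in them, are printed from the plus strand, with CACGTG and CCAAT (or ATTGG, its other strand) in capitals.
Map1lc3b, chr8:121590261-121590360: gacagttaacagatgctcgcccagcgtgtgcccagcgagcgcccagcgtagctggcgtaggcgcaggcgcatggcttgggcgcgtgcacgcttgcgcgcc
Atg3, chr16:45158707-45158784: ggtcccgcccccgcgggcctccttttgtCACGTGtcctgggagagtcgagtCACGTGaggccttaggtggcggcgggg
Atg7, chr6:114670922-114671021: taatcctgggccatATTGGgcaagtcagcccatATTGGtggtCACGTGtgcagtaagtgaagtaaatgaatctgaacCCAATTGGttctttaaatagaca
Atg5, chr10:44268239-44268338: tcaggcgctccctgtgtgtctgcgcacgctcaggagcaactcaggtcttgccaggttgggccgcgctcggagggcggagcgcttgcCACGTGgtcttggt
The Atg3 stretch held 2 copies of CACGTG, and those of Atg7 and Atg5 held 1 each. The Map1lc3b stretch held neither motif and was 70.0% G and C. The RefSeq start of Atg7 used here lies inside the longer gene of GENCODE M21. A match is a run of letters and not a measured binding site.

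Other genes of the pathway also rose more often than all genes tested, which rose in 19.5% and fell in 17.8% of cases. Of 23 tested genes for further selective receptors and mitophagy, 14 rose and 3 fell, with a median log2 change of 0.36. The endoplasmic reticulum receptor gene Rtn3 rose by 0.77 (SE 0.03, limma adjusted p = 3.2e-15), and the mitophagy receptor genes Bnip3 and Fundc1 rose by 0.47 (SE 0.03, limma adjusted p = 9.7e-13) and 0.70 (SE 0.05, limma adjusted p = 8.1e-11). Ccpg1, another receptor for the endoplasmic reticulum, had the largest rise of this list, 1.28 on the log2 scale, and Ncoa4, the receptor for ferritin, fell by 0.48; both are named after their values were seen. Of 24 further core and regulator genes 12 rose and 4 fell (median 0.31). Among them Tmem59 rose by 0.90 (SE 0.03), Bcl2, which can hold Beclin 1, had a log2 change of -0.71 (SE 0.04), and Bcl2l1 rose by 0.35 (SE 0.03), each at a limma adjusted p of 6.2e-11 or lower.

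The steps after the autophagosome showed the same direction in most genes. Of 16 genes for fusion with lysosomes 11 rose and 1, Plekhm1, fell (median 0.23). The small GTPase gene Rab7 rose by 0.32 (SE 0.03, limma adjusted p = 1.8e-10), the lysosomal membrane gene Lamp1 by 0.48 (SE 0.04, limma adjusted p = 1.1e-09) and the SNARE gene Stx7 by 0.53 (SE 0.05, limma adjusted p = 2.1e-09). The autophagosomal SNARE gene Stx17 did not pass (log2 change -0.07, limma adjusted p = 0.73). Plekhm1 and Stx17 are named after their values were seen. Of 26 tested genes listed for the CLEAR network, the lysosomal set with known TFEB sites, 18 rose and 2 fell (median 0.32). That list also holds the transcription factor genes Mitf and Tfec, which did not pass and are named after their values were seen. Ctsd, a main lysosomal protease, rose by 0.94 (SE 0.02, limma adjusted p = 4.6e-20), Psap by 0.69 (SE 0.02, limma adjusted p = 8.4e-18) and Ctsb by 0.46 (SE 0.02, limma adjusted p = 1.8e-15). Many lysosomal genes are also high in macrophages, and the part of the monocyte and macrophage markers given above in these rises was not tested.

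**Figure D4:**
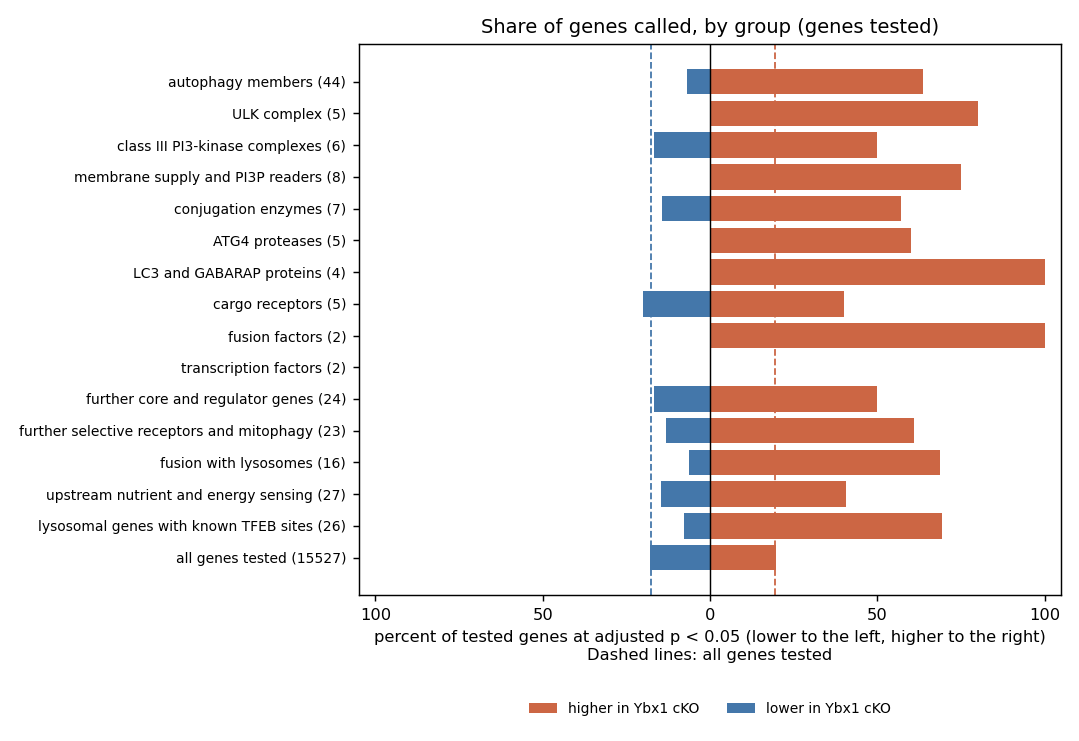
Bars give the percent of tested genes that rose (to the right) or fell (to the left) in cKO for each role, each further list and all genes tested, with the number tested in brackets; dashed lines mark 19.5% and 17.8%. Each role holds 2 to 8 genes, so its share rests on few genes, and the bars of 63.6% and 6.82% are those of all 44.

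How far the rises depend on scaling followed the expression level. Quantile normalization, which gives all libraries the same distribution, left the changes of genes at middle levels near their values, such as 0.96 for Wdr45 and 0.92 for Wipi1, and lowered those of the highest genes. Map1lc3b had a change of 0.90 after this step (limma adjusted p = 6.3e-16), and Wdr45 and Wipi1 then had the larger changes. The same 31 genes were called, with 28 higher and 3 lower.

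**Figure D5:**
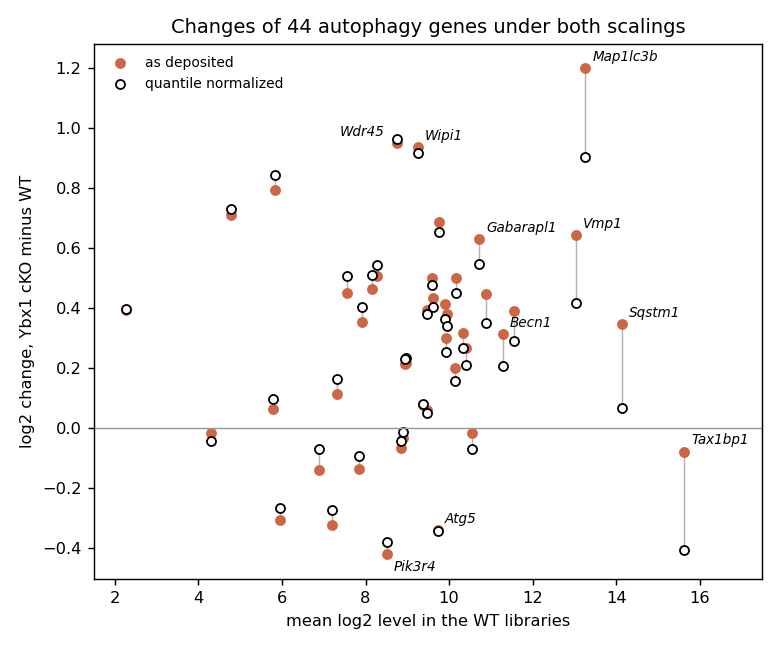
Each of the 44 autophagy genes is placed by its mean log2 level in WT (horizontal axis) and its log2 change (vertical axis), as deposited (filled) and after quantile normalization (open), joined by a line. The lines lengthen to the right: Map1lc3b moves from 1.20 to 0.90, Sqstm1 from 0.35 to 0.07 and Tax1bp1 from -0.08 to -0.41.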

How the data were processed

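The table deposited by the authors held 1 score per gene and library on a log scale of unstated base, in 4 columns matched to samples by title; 0 columns of values were left out. The submitters' processing notes list the tools CASAVA, featureCounts, DESeq2 and HISAT2 2.1.0 and the build GRCm38 without saying what each did. Use of strand is not stated there. Scores were multiplied by 0.693, since the replicate noise was then 1.19 (WT) and 1.43 (cKO) times Poisson noise, against 4.83 and 5.90 for plain log2. Changes of low genes may be understated. The fit took genes that reached a score of 1 in 2 or more libraries and was made with limma 3.58.1 in R 4.3.3 (mean-variance trend, Benjamini-Hochberg adjustment, two-sided). It was also run on simulated data whose noise depended on the level alone, so that run could not test the choice of prior variance. Tables were made with pandas 2.3.3 and numpy 2.4.6, and plots with matplotlib 3.10.9 (Python 3.11.15). Positions and exon lengths come from GENCODE M21, promoters from RefSeq. Members and lists were chosen with earlier results of these data known. Values in every library were given for a fixed set of members (Map1lc3b, Gabarap, Gabarapl1, Gabarapl2, Sqstm1, Becn1, Ulk1, Atg5, Atg7, Tfeb and Tfe3) where they had a row and for called members with a log2 change of at least 0.3; of each further list the 3 called genes with the smallest p were named, and others where the text says so. Alternatives were other filters, thresholds, scalings, prior variances, a replicate block and leaving out each library. The transcript length, the CCAAT motif, the counts of changes by size and the addition of Wdr45b to the WIPI shares were chosen after seeing the data.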

Additional observations from a re-analysis of the deposited data

How the results depend on the processing

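Of 44 autophagy genes, 31 were called (28 higher, 3 lower). The total lay between 25 and 32 under other filters, adjusted p thresholds of 0.01 and 0.10, quantile normalization, equal library medians, a robust prior, plain log2 scores and leaving out each library (26 to 31), and 80 calls in the other pathway lists lay between 65 and 83. With a prior variance that did not follow the level, 12 were called (12 higher, 0 lower), all 12 among the 26 named genes called before, and 32 in the other lists; over all genes the count went from 5803 to 2267. The median change of 0.33 became 0.26 (quantile), 0.39 (equal medians) and 0.48 (plain log2). Signs of 8 of the 13 uncalled genes turned when 1 library was left out (Atg12, Atg4a-ps, Atg4c, Atg9b, Nbr1, Tfeb, Ulk1 and Uvrag; Ulk1 ranged from -0.12 to 0.24 and Tfeb from -0.25 to 0.22), and of 3 with equal medians (Atg12, Optn and Tfeb, the last at 0.046 after this median shift); 0 of the 31 called genes turned in either. When a library is left out, the lone sample of its group is assumed to vary like the other group. The labels do not say that equal replicate numbers pair the samples, and deviations of same-numbered libraries had a correlation of 0.01 over genes. With a replicate block, 6026 genes were called in all and the same 31 of the autophagy genes. That fit uses less of each gene's own scatter and leans more on the prior variance, so it is a weak check of these calls. With no counts, depth sets no stated limit, but 6 calls (Ulk2, Epg5, Atg10, Atg16l1, Atg4a and Atg13) were lost when a single library was left out.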

Other observations

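Upstream of autophagy, genes of nutrient and energy sensing rose more often than they fell. Of 27 tested genes 11 rose, 4 fell and 12 did not pass, where 19.5% of all genes tested rose and 17.8% fell. The rises with the smallest p-values were those of Rheb, the GTPase that activates the growth kinase complex mTORC1 (log2 change 0.56, SE 0.03, limma adjusted p = 6.6e-13), and of Lamtor2 and Lamtor4, parts of the lysosomal platform of mTORC1 (log2 changes 0.67 and 0.69, limma adjusted p = 8.2e-13 and 4.5e-11). The kinase gene Mtor did not pass and its groups overlapped (log2 change 0.11, limma adjusted p = 0.69). Subunit genes of the energy sensor AMPK went both ways: the catalytic Prkaa1 had a log2 change of -0.24 (limma adjusted p = 0.011) and the regulatory Prkag1 of 0.37 (limma adjusted p = 3.4e-04), Prkag2 and Prkab2 did not pass, and Stk11, whose kinase activates AMPK, rose by 0.30 (limma adjusted p = 0.046). So did genes of mTORC1 inhibitors: Tsc2 had a log2 change of -0.41 (limma adjusted p = 3.3e-03) and Akt1s1 of 0.69 (limma adjusted p = 5.2e-08), and Tsc1 and Deptor did not pass. All genes of this paragraph but Rheb, Lamtor2 and Lamtor4 are named after their values were seen.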
